A study of Mus musculus with 6 samples.

Results

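The 8 genes Cxcl9, Cxcl10, Cxcl11, Ccl5, Ccl2, Ccl3, Ccl4 and Cxcl16 encode chemokines that interferons or inflammatory signals can induce, and they are described here in LSK cells, which are bone marrow cells gated as lineage-Sca-1+c-Kit+ and comprise haematopoietic stem cells and early progenitors. The members were taken by name from the probes that are not controls, which gave 12 probes out of 56605 and 8 genes out of 37074. They were chosen by symbol with the difference in their signal between these 2 groups known, so those differences are a description. The threshold used for all genes only sorts the members into called and not called, and nothing rests on those calls. Each group had 3 samples with 1 array each, from C57BL/6 mice at postnatal days 6 to 8. Control samples were labelled Atg5w/w;VaviCre+ and the others Atg5f/f;VaviCre+, called control and Atg5f/f;Vav below, and the comparison addressed what loss of Atg5, a gene needed to build autophagosomes, changes in these cells. Both groups carried the VaviCre transgene, which drives Cre mainly in blood-forming cells and their progeny. The number and the sex of the mice behind a sample were not given, and n and SD refer to arrays.

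Chemokines are small secreted proteins that guide cells along a gradient through G protein-coupled receptors on the responding cell. Cxcl9, Cxcl10 and Cxcl11 lie side by side in the genome, share the receptor Cxcr3 and are textbook targets of interferon signalling. Ccl3, Ccl4 and Ccl5 draw T cells and monocytes, Ccl2 acts through Ccr2, and Cxcl16 is made as a membrane protein whose shed part binds Cxcr6. Several of them also respond to NF-kB. In bone marrow, blood-forming cells, myeloid cells and stromal cells can all make chemokines.

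On 1-colour arrays a spot is brighter where more RNA binds the probe it carries, here a 60-mer. Values below are the log2 signal of a probe minus the 75th percentile of its own array, so that 0 is the signal at that percentile, and a difference is the mean of the Atg5f/f;Vav arrays minus that of the control arrays. Between 59.4% and 59.9% of spots were well above background on the control arrays and between 53.6% and 56.7% on the others. All arrays shared 1 slide and 1 scan. Control RNA was in row 1 of the slide and Atg5f/f;Vav RNA in row 2, and the effect of row and that of genotype cannot be told apart. The 7 spike-in controls detected on every array were lower by 0.50 to 0.63 in Atg5f/f;Vav on this scale. Atg5 had 1 probe, which starts at base 2251 of its transcript and read 1.10, 0.93 and 1.06 on the control arrays against 1.46, 1.51 and 1.74. The deleted part of Atg5 is not given in the sources used here, so this probe does not check the labels, and every direction below rests on them. All 10 LSK marker genes, Kit and Ly6a (Sca-1) among them, were well above background on all arrays. Of these markers Ly6a was called higher (1.57) and Mecom (-1.75), Hlf (-1.65) and Procr (-1.56), genes of stem cells, were called lower. The other 6 were not called. The sum of the 10 linear signals ranged from 158 to 166 times the 75th percentile in control and from 102 to 166 in Atg5f/f;Vav. Sca-1 is part of the gate, and whether the gate took in the same cells in both groups was not tested.

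Of the 8 chemokines, 3 were higher and 1 was lower in LSK cells of Atg5f/f;Vav mice by the threshold applied to all genes (an adjusted p of 0.05). Cxcl9, Cxcl10 and Ccl5 were higher, and Ccl4 was lower. Cxcl9 passed the filter on dim probes only through the group where it is high, and with detection required on all 6 arrays 2 members were called higher. Cxcl11, Ccl2 and Ccl3 did not reach the threshold, and Cxcl16 was too dim to be tested. Among all 20774 genes tested with limma, 18.7% were called higher and 15.3% lower. These shares were 0.597% and 0.371% without the first control array, 0.52% and 0.255% without the second, 15.5% and 10.1% without the third, 12.7% and 10.9% without the second Atg5f/f;Vav array, and 13.9% and 11.6% with quantile normalisation. The median difference of the 7 tested members was -0.12, beside -0.03 over all genes tested. It was 0.40 over the 6 without Cxcl11, whose probes are described below as shared with other genes, a choice made after the values were seen. On the brightest probe of each gene, 6 of the 8 were well above background on all arrays, Cxcl9 was so on the Atg5f/f;Vav arrays and on none of the control arrays, and Cxcl16 was so on 1 array of each group. In bulk samples such as these, fewer cells that make a transcript and less of it per cell cannot be told apart.

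**Figure D1:**
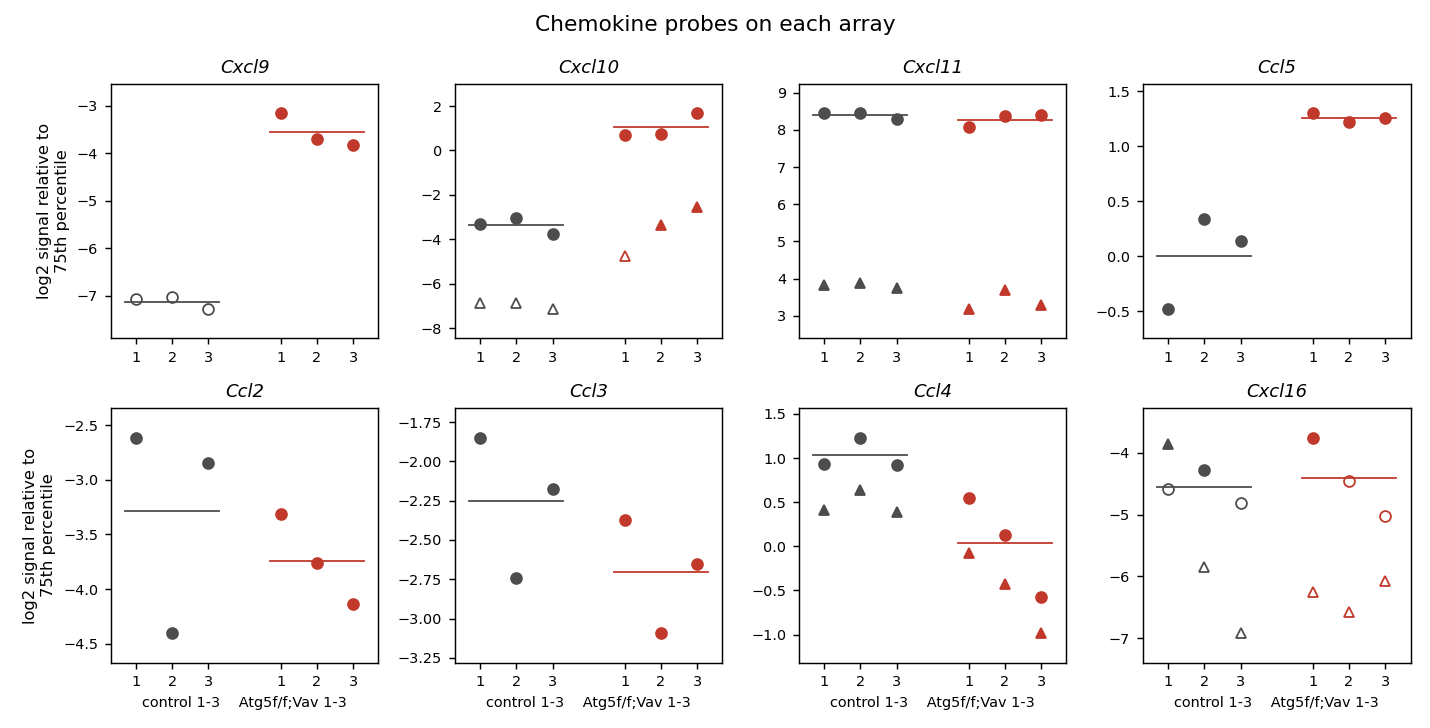
Log2 signal relative to the array's 75th percentile (y axis) of each chemokine probe on the 3 control arrays (grey) and the 3 Atg5f/f;Vav arrays (red). Circles are the brightest probe of a gene, with a line at the group mean, triangles are a second probe, and open symbols mark a probe not well above background on that array. Cxcl9, Cxcl10 and Ccl5 lie higher on all red arrays, Ccl4 lies lower on both of its probes, and the other genes overlap on their brightest probe. Each panel has its own scale.

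Cxcl9, which draws activated T cells and NK cells to sites of interferon-gamma signalling, was measured by 1 probe on chromosome 5 (mm9, chr5:92752191-92752250, minus strand). In control it read -7.08, -7.03 and -7.27, not well above background on any array. In Atg5f/f;Vav it read -3.15, -3.70 and -3.83, well above background on each array. The groups did not overlap, which was also the case, with Atg5f/f;Vav higher, for 29.6% of all genes tested. The control level has only an upper bound. With background as corrected in the deposited intensities, the Atg5f/f;Vav signal was at least 2.45-fold higher than the control signal. The measured log2 difference was 3.56 (SE 0.19), and it fell to 1.04, less than that bound, when background was corrected with normexp.

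Cxcl10, made by many cell types within hours of an interferon signal, had the largest difference of the members detected on all arrays. Its brighter probe (chr5:92775781-92775840) read -3.30, -3.04 and -3.77 on the control arrays and was well above background there. The same probe read 0.71, 0.75 and 1.69 on the Atg5f/f;Vav arrays. The lowest Atg5f/f;Vav array was thus above the highest control array, and the third Atg5f/f;Vav array stood above the other two. The log2 difference was 4.42 (SE 0.31), a fold of 21.4, and it lay between 4.10 and 4.59 when each array was left out in turn.

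The dimmer Cxcl10 probe (chr5:92776616-92776675) went the same way. It read -6.88, -6.87 and -7.12 on the control arrays, all below detection, and -4.77, -3.34 and -2.55 on the Atg5f/f;Vav arrays, 2 of which were well above background. This probe was detected on too few arrays to be tested, and its Atg5f/f;Vav signal was at least 2.46-fold higher than in control. On both probes the third Atg5f/f;Vav array was the brightest.

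Cxcl10 and Cxcl9 lie next to each other, their probes 23.6 kb apart, and both were higher in Atg5f/f;Vav. The 250 bases before their starts are shown, with those of Ccl3, whose groups overlapped. The RefSeq table (GRCm38.p6) matched only these 3 of the 8 members, so the choice was set by that table. It held no window for Ccl5, which was also higher. All 3 lie on the minus strand. Each is written 5′ to 3′ and ends at the base before the transcript start. Capitals mark an interferon-stimulated response element (letters GAAA, any 2 bases, GAAA) or a match to the NF-kB consensus, with both strands searched.
Cxcl9 (chr5:92328080-92328329): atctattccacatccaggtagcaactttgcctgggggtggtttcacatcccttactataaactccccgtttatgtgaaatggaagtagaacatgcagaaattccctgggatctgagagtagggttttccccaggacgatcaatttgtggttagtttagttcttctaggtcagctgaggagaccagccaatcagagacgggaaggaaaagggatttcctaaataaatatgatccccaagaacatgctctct
Cxcl10 (chr5:92348890-92349139): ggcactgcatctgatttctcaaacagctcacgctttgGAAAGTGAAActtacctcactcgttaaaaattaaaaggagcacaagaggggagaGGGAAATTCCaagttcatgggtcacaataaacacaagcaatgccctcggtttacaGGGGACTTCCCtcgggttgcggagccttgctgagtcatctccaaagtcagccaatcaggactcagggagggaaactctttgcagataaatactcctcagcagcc
Ccl3 (chr11:83649379-83649628): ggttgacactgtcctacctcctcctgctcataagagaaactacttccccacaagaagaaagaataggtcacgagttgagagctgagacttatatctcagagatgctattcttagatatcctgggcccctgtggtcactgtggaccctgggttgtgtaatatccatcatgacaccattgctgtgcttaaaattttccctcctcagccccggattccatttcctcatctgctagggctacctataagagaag

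The Cxcl10 window held 1 interferon-stimulated response element, 213 to 204 bases before the start. It also held 3 matches to the NF-kB consensus, at 159 to 150, 104 to 95 and 103 to 94 bases before the start, the last pair overlapping. Over all 32851 promoter windows of that length, 2.98% held the interferon-stimulated response element and 7.25% the NF-kB consensus. The Cxcl9 and Ccl3 windows held neither, and none of the 3 windows held a gamma-activated site (letters TTCNNNGAA), found in 7.02% of all windows. A shorter form of the response element (letters GAAANNGAA), which lies within the longer one in Cxcl10, was present once in each of the 3 windows and in 7.13% of all. A match is a stretch of letters and not a measured binding site.

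Cxcl11, the third Cxcr3 ligand, did not separate the groups on its brighter probe. C57BL/6 mice are known for a Cxcl11 allele that gives no functional protein. Its brighter probe (chr5:92788567-92788626, minus strand) read 8.45, 8.46 and 8.30 in control and 8.08, 8.37 and 8.39 in Atg5f/f;Vav, which overlap. The difference was -0.12 (SE 0.13). The other probe (chr5:92788640-92788699) read 3.82, 3.87 and 3.75 against 3.19, 3.68 and 3.29. Here all Atg5f/f;Vav arrays were below all control arrays, as for 26.3% of genes tested, and the difference was -0.43 (SE 0.15).

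These 2 probes carried sequence that probes of other genes also carry. The brighter one shared a stretch of at least 15 bases with 22 probes of other genes, a number reached by 0.442% of all probes on the array, and a stretch of 20 bases with 6. The dimmer one shared 15 bases with 3. The stretches of 30 bases with the most sharing are shown because they bear on what the bright signal measures, with the shared bases in capitals.
Cxcl11 brighter probe, bases 15 to 44: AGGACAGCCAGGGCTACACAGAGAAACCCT
Cxcl11 dimmer probe, bases 16 to 45: cagcacttgaaAGGCAGAGGCAGGAGGATC

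As background, letters like these occur in the B1 family of short interspersed repeats, which are spread through many mouse transcripts. How much of the signal of either probe came from Cxcl11 was not tested, so these values are not read as the level of Cxcl11.

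Ccl5 (RANTES), a chemokine that T cells, NK cells and platelets make in quantity, was higher in Atg5f/f;Vav. Its probe (chr11:83339296-83339355, minus strand) read -0.48, 0.34 and 0.13 in control and 1.30, 1.22 and 1.25 in Atg5f/f;Vav. The Atg5f/f;Vav arrays lay within a narrow band above all control arrays, and the first control array was the lowest. The log2 difference was 1.26 (SE 0.21), a fold of 2.39. Without the second control array the difference was 1.43 and no longer reached the threshold, and without the first it was 1.02 and did.

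Ccl4 (MIP-1beta), which macrophages and activated T cells make, was the one member lower in Atg5f/f;Vav. Its brighter probe (chr11:83478052-83478111, plus strand) read 0.94, 1.23 and 0.93 in control and 0.55, 0.13 and -0.57 in Atg5f/f;Vav. Its other probe, which starts 14 bases upstream and shares most of its bases, read 0.41, 0.64 and 0.39 against -0.07, -0.43 and -0.98. No Atg5f/f;Vav array reached the lowest control array on either probe, and the third was the lowest. The differences were -0.99 (SE 0.28) and -0.97 (SE 0.23), about 1.99-fold and 1.97-fold. The brighter probe lost the threshold without any 1 of the 3 control arrays or the second Atg5f/f;Vav array, at -1.04, -0.89, -1.05 and -1.04, and was -0.69 without the third Atg5f/f;Vav array.

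Ccl3 (MIP-1alpha), a close relative of Ccl4 whose probe lies 16.7 kb from that of Ccl4, overlapped between groups. It read -1.85, -2.74 and -2.17 in control and -2.37, -3.09 and -2.65 in Atg5f/f;Vav (chr11:83461358-83461417, minus strand). The difference was -0.45 (SE 0.27). Without the second control array it was -0.69, and without the first it was -0.25.

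Ccl2 (MCP-1), the main attractant of Ccr2-bearing monocytes, varied most among control arrays on the brightest probes of the members. It read -2.61, -4.41 and -2.84 there and -3.32, -3.77 and -4.14 on the Atg5f/f;Vav arrays (chr11:81850650-81850709, plus strand), with the second control array below all others. The difference was -0.45 (SE 0.47). It was -1.01 without that second control array and -0.12 without the first.

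Cxcl16, the membrane-bound chemokine, was near the detection limit. Its brighter probe (chr11:70267780-70267839) read -4.58, -4.28 and -4.82 in control and -3.75, -4.45 and -5.03 in Atg5f/f;Vav, with 1 array of each group well above background. The other probe (chr11:70269481-70269540) read -3.86, -5.84 and -6.92 against -6.25, -6.58 and -6.08, and was detected on the first control array only. The groups overlapped on both probes, and the differences of 0.15 and -0.76 opposed each other.

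**Figure D2:**
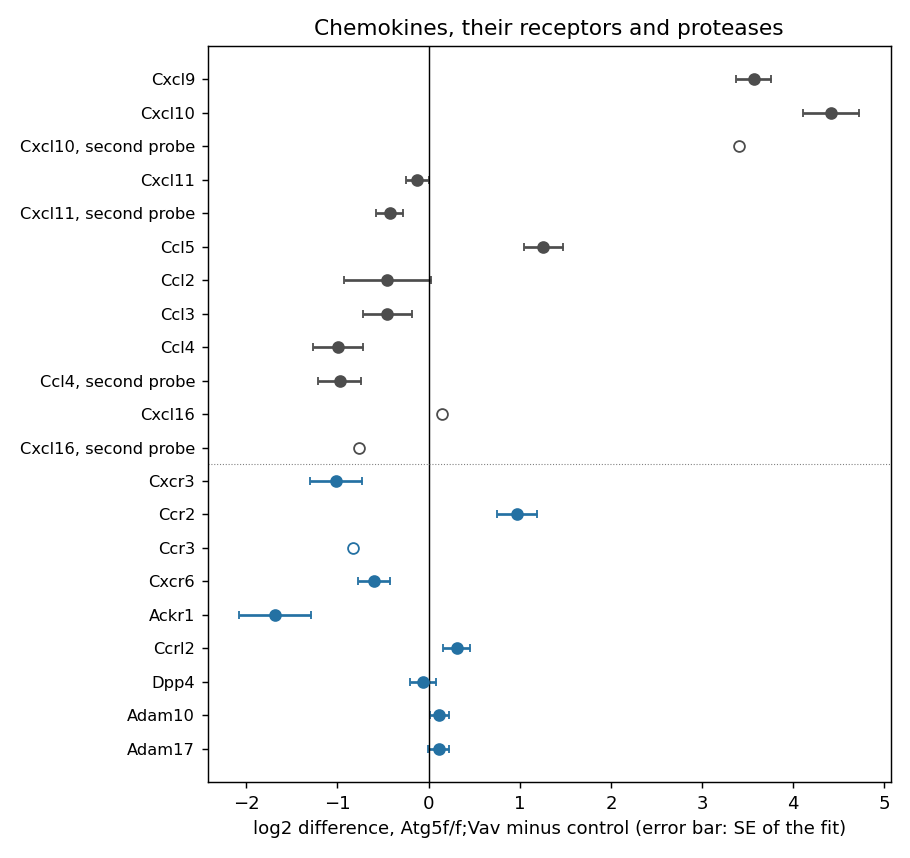
Log2 difference (x axis, Atg5f/f;Vav minus control, 3 arrays a group) of each chemokine probe (grey) and of the receptors and proteases described by name that were detected on any array (blue). Bars are the SE of the limma fit, and open symbols without a bar were detected on too few arrays to be tested. Cxcl10 and Cxcl9 lie farthest to the right at 4.42 and 3.56, while Cxcr3, Cxcr6 and Ackr1 lie to the left of 0.

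Receptors of these chemokines were read beside them. Of 10 genes for receptors that bind a member, 6 could be tested, and 1 was called higher and 4 lower, with a median difference of -0.76. The 4 and the median include Ackr1, which was detected on the control arrays only. With detection required on all 6 arrays, 2 were called lower. Among all genes tested 18.7% were called higher and 15.3% lower. Cxcr3, the receptor of Cxcl9, Cxcl10 and Cxcl11, read -0.43, -0.20 and -0.50 in control and -0.91, -1.20 and -2.06 in Atg5f/f;Vav. Its difference was -1.01 (SE 0.29, adjusted p = 0.0358). The third Atg5f/f;Vav array was again the lowest, as for Ccl4.

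Cxcr6, the receptor of Cxcl16, differed by -0.60 (SE 0.17, limma adjusted p = 0.0376), and a second Cxcr6 probe was called lower as well, by -1.11. Ackr1, a decoy that binds inflammatory chemokines without signalling, was detected on every control array and on no Atg5f/f;Vav array, and was at least 2.60-fold lower. It passed the filter on dim probes only through the control arrays, so its call is no support, and the same holds below for Ppbp, Il6, Gzmb and Col1a1, which were detected in 1 group only.

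Ccr2, the receptor of Ccl2, was called higher. It read -3.96, -3.21 and -3.31 in control and -2.65, -2.60 and -2.30 in Atg5f/f;Vav, a difference of 0.97 (SE 0.22, limma adjusted p = 0.0209) with no overlap. Ccrl2, a non-signalling receptor, differed by 0.31 (adjusted p = 0.14). Ackr3, Ccr1 and Ackr2 were well above background on no array, and Ccr3 on 1. None of the 5 receptor calls held without the first or without the second control array. Over all genes tested, 0.597% were called higher and 0.371% lower without the first, and 0.52% and 0.255% without the second. Cxcr3 was also not called without the third control array or the second Atg5f/f;Vav array, nor Cxcr6 without the second or the third Atg5f/f;Vav array, and with quantile normalisation only Ackr1 (-1.36) and Ccr2 (1.24) were.

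The proteases that act on these ligands did not reach the threshold on their brightest probes. Dpp4, which trims Cxcl10 and other members at the amino terminus, differed by -0.06 (SE 0.14), although 2 dimmer Dpp4 probes were called lower, by -0.44 and -1.06. Adam10 and Adam17, which shed Cxcl16 from the membrane, differed by 0.12 (SE 0.10) and 0.11 (SE 0.12). Their other tested probes had the opposite sign, at -0.22 for Adam10 and -0.11 and -0.70 for Adam17, and were not called.

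Other chemokines were detected in part. Of 30 further ligand genes, 15 were well above background on no array, among them Cxcl1, Cxcl2, Cxcl3 and Cxcl5 and the neighbours of Ccl2, Ccl7, Ccl11 and Ccl12. Of the 10 that could be tested, 1 was called higher and 3 lower, beside 18.7% and 15.3% of all genes tested, and the median difference was -0.27. Ccl17, a ligand of Ccr4 that dendritic cells make, read between -5.52 and -4.05 on the control arrays, 1 of them well above background, and -2.77 or more on the Atg5f/f;Vav arrays, without overlap. The difference was 3.14 (SE 0.53, limma adjusted p = 0.0153), and it was 1.54 with normexp. Ccl19, a ligand of Ccr7, was detected on 2 Atg5f/f;Vav arrays and on no control array, at least 2.22-fold higher, and was not tested.

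Ppbp, a platelet chemokine, was detected on all control arrays and no Atg5f/f;Vav array and was at least 1.22-fold lower. Cx3cl1, a membrane-bound chemokine, differed by -1.09 (adjusted p = 0.0287), and Ccl27a by -0.85 (adjusted p = 0.0167). Of 13 further receptors, 5 could be tested. Cx3cr1, the receptor of Cx3cl1, was higher by 1.61 (adjusted p = 0.0175) and Ccr9 differed by -1.37 (adjusted p = 0.0467). None of these 6 calls held without the first or without the second control array, and those of Cx3cl1 and Ccr9 were also lost without the third. Few of all genes tested were called without the first or without the second, as given above.

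**Figure D3:**
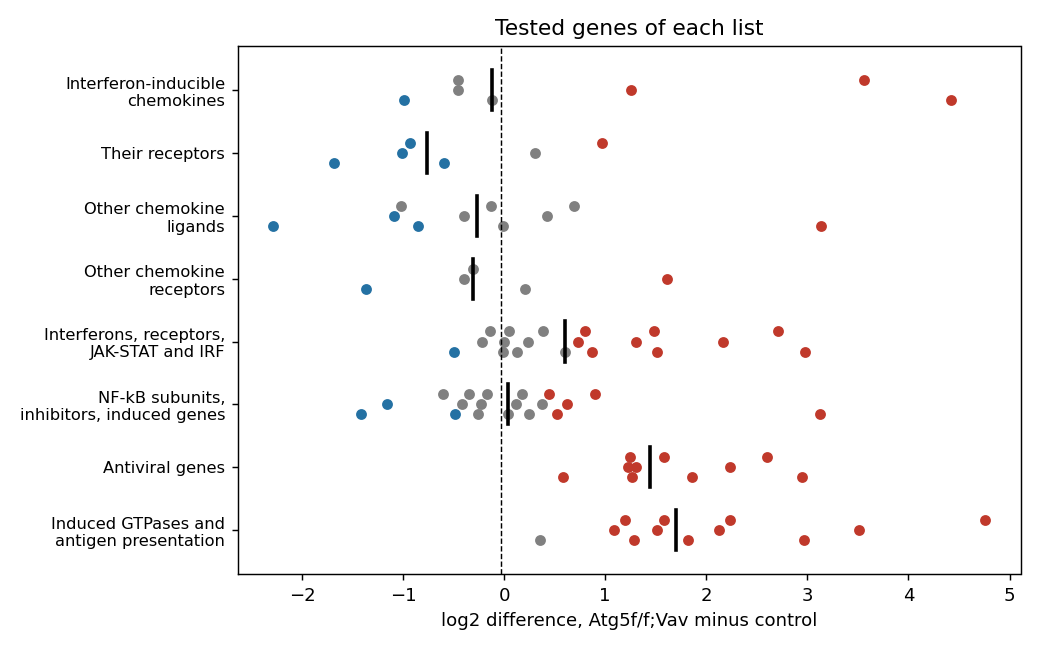
Log2 difference (x axis, Atg5f/f;Vav minus control) of every tested gene of 8 lists on its brightest probe, red where called higher, blue where called lower and grey where not called. Black bars are the list medians and the dashed line is the median over all genes tested (-0.03). The antiviral genes and the induced GTPase and antigen presentation genes lie right of the line, with medians of 1.44 and 1.70, while the chemokines spread from -0.99 to 4.42.

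Genes that carry the interferon signal to the chemokine promoters were measured on the same arrays. Of 22 genes for interferons, their receptors, JAK-STAT components and IRF factors, 19 could be tested, and 9 were called higher and 1 lower, with a median difference of 0.60. The shares over all genes tested were 18.7% higher and 15.3% lower. Usp18, a feedback inhibitor, was higher by 2.71, and Irf7 and Irf1, which act on interferon-stimulated response elements, by 2.17 and 1.51. Irf2, an antagonist of Irf1, was lower (-0.50, adjusted p = 0.0357). Ifng, Ifnb1 and Ifna4, the interferons on the list, were well above background on no array. Without the first control array 4 of the 9 higher calls were made and without the second 5, beside 0.597% and 0.52% of all genes tested. The call of Irf2 was lost when any array but the first Atg5f/f;Vav array was left out.

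Both groups of interferon targets, chosen with earlier results of these arrays known, were higher in nearly every member. Of 12 induced GTPase and antigen presentation genes, 11 were called higher, beside 18.7% of all genes tested, with a median of 1.70. Iigp1, a GTPase, differed by 4.76 and Igtp by 3.51, while Cd274 (0.35, limma adjusted p = 0.0769), named after its value was seen as the 1 exception, was not called. All 10 antiviral genes were called higher, with a median of 1.44, Isg15 at 2.94 and Ifit3 at 2.60 among them. Without the second control array 5 of the 12 and 6 of the 10 were called, and without the first 9 and 3. The shares of all genes tested called higher were 0.52% and 0.597%.

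Of 21 NF-kB subunits, inhibitors and induced genes, 19 could be tested, 5 were called higher and 3 lower, and the median was 0.04. Over all genes tested 18.7% were called higher and 15.3% lower, so these counts are not read as a result about the list. Il6, the cytokine, was detected on all Atg5f/f;Vav arrays and no control array, at least 1.79-fold higher, and Nfkbib, an inhibitor, was higher by 0.90 and Bcl3 and Nfkb2 by 0.62 and 0.53. Vcam1, an adhesion molecule, differed by -1.42 (adjusted p = 0.00864), Traf1 by -1.16 and Birc3 by -0.48. Il1b and Cd40 were well above background on no array. Without the first or without the second control array, only Il6 and Vcam1 were called. Over all genes tested these settings called 0.597% and 0.52% higher and 0.371% and 0.255% lower. Without the third control array 3 of the list were called higher and 1 lower, and without the second Atg5f/f;Vav array 2 and 2.

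The position of the members in the genome was set against their neighbours within 100 kb, a comparison chosen after the values of the members had been seen. Around Cxcl10, Naaa and Sdad1 were called higher, by 0.61 (limma adjusted p = 0.0258) and 0.68 (adjusted p = 0.0174), while Art3 (-0.47), Nup54 (0.39) and Scarb2 (0.14) were not called. The differences of Cxcl9 and Cxcl10 were larger than those of the other genes tested in the interval. Around Ccl4, Wfdc18 and Wfdc21 were called lower, by -1.69 and -1.44 (adjusted p = 0.0199 and 0.0345), while the chemokines Ccl6 (-0.40) and Ccl9 (0.43) were not called.

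**Figure D4:**
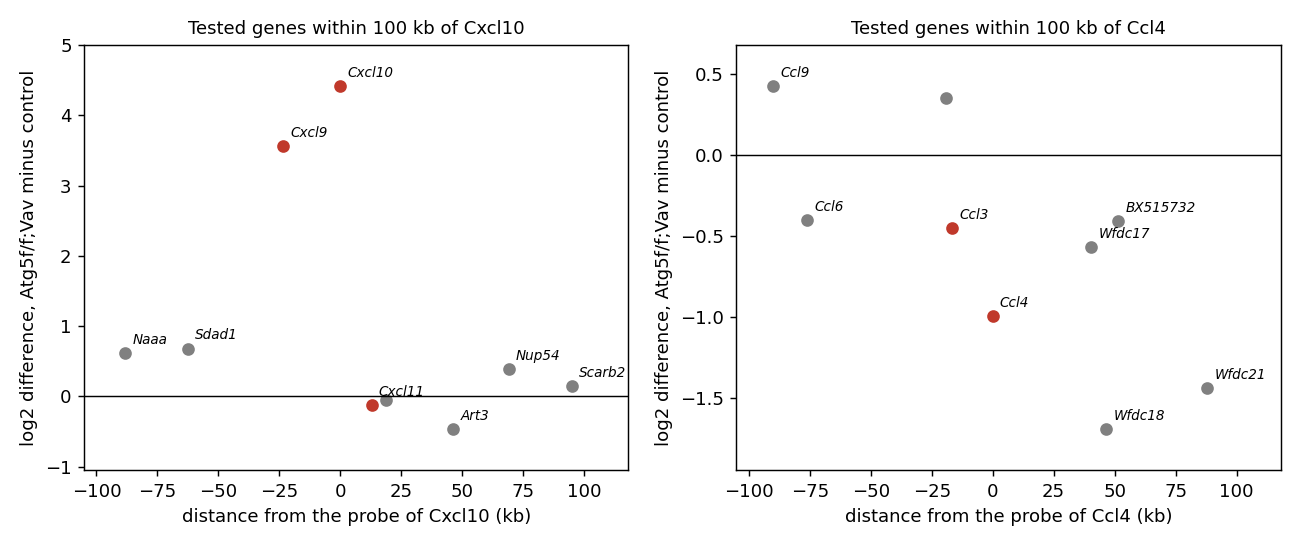
Log2 difference (y axis, Atg5f/f;Vav minus control) of tested genes by the distance of their brightest probe from that of Cxcl10 (left) and of Ccl4 (right), in kb. Members are red and other genes grey, and names are given for genes with a symbol. Cxcl9 and Cxcl10 stand at 3.56 and 4.42 with the other genes of the interval between -0.47 and 0.68, and Ccl4 lies near Ccl3 with Wfdc18 and Wfdc21 below both.

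For each member detected on all arrays, the genes whose values over the 6 arrays were nearest were found among 18381 genes, by the root mean square distance of log2 values after the control mean of each gene was taken off. Nearest to Cxcl10 were Gm4951 (0.20), an unnamed transcript (0.27) and Iigp1 (0.30). Nearest to Ccl5 were Ms4a6c (0.11), Ciita (0.12), the transactivator of MHC class II genes, and Oas2 (0.14), of which Ms4a6c stayed among the nearest 3 with quantile normalisation and the others did not. Nearest to Ccl4 was the receptor gene Cxcr3 (0.06), followed by Thsd1 (0.06) and Plekha4 (0.06), none of which stayed among the nearest 3 with quantile normalisation. For Ccl3 the nearest were Ercc6 (0.13), Stab2 (0.16) and Marveld2 (0.17), and for Ccl2, whose nearest were farther off, Afap1 (0.29), Trib1 (0.32) and Slc16a11 (0.32). For Cxcl11 they were Vps13a (0.02), Gla (0.02) and Ttc38 (0.03), with other genes under quantile normalisation.

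The lineage stain that the methods give for mice of this age comprised antibodies to Gr-1, Ter119, IL7R, B220, CD4 and CD8, which select against neutrophils, erythroid cells, lymphoid progenitors, B cells and T cells, and it had none to Mac-1, a myeloid marker. Markers of other cell types that can make these chemokines were read beside them, as the sum of a list's linear signals in units of the 75th percentile. Such a sum is set mostly by the brightest markers of its list, and it does not measure the number of cells. Counts of called markers stand beside 18.7% higher and 15.3% lower over all genes tested. For monocytes and macrophages, 7 of 12 markers could be tested, Ly6c2 was called higher (0.56) and Lyz2 lower (-0.86), Cd163 and Mertk were detected on no array, and the sum ranged from 46.1 to 48.9 in control and from 41.6 to 48.9 in Atg5f/f;Vav. For T and NK cells, 1 of 8 tested markers was called higher. It was Gzmb, detected on no control array and at least 11.7-fold higher, while Cd3g, Cd8a and Ncr1 were detected on no array and the sum ranged from 7.84 to 11.7 and from 11.4 to 12.4. For dendritic cells, Ccr9 was called lower among 6 tested, Cd209a was detected nowhere, and the sum ranged from 138 to 169 and from 126 to 152.

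Of the 8 neutrophil markers, 7 were called lower, beside 15.3% of all genes tested, with sums of 78.1 to 163 in control and 37.5 to 67.0 in Atg5f/f;Vav. For basophils and mast cells, Ms4a2 was called higher (2.96) and Prss34 (-1.25) and Tpsb2 (-1.06) lower, with sums of 9.0 to 22.9 in control and of 5.99 to 8.79 in Atg5f/f;Vav. Of 8 tested stromal and endothelial markers 5 were called lower, with sums of 14.4 to 44.0 and 8.31 to 10.6, and the first control array was the one with low collagen (Col1a1 at -4.14, against 3.23 and 2.95). Erythroid markers were called higher in 5 of 8 and lower in 1, with sums of 7.85 to 13.6 and 13.2 to 44.1. Among megakaryocyte markers, Itga2b was called higher and Ppbp, Gp9 and Vwf lower, with sums of 7.56 to 9.07 and 6.40 to 6.79. Cd79a alone of 8 B cell markers was called higher, with sums of 9.83 to 13.6 and 11.7 to 19.8. Of the 34 marker calls, 6 held without the first control array, 4 without the second and 20 without the third, beside the fall in calls over all genes given above. The part of these cell types in the values of the chemokines was not tested.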

How the data were processed

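RNA of sorted LSK cells from 3 control and 3 Atg5f/f;Vav samples was hybridised to 1-colour Agilent arrays. The authors deposited the intensity of every spot, corrected for background with Agilent Feature Extraction 12.0.3.1, and a second file of signal. Each value there is the intensity over a constant of its array. That constant lies close to the array's own 75th percentile of all spots, for example 571.91 against 571.67 on the second control array. Probe positions are those of mm9.

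From the intensities, log2 values were scaled by subtracting, array by array, the 75th percentile of the 59305 non-control spots. These percentiles were 656.8, 651.7 and 746.2 in control and 881.4, 698.4 and 620.3 in Atg5f/f;Vav. Outlier-flagged spots (64 to 81 an array) were left out, no spot was saturated, and spots of a probe were averaged. A probe was tested if 3 or more of the 6 arrays had it well above background, which 32074 met. The test was that of limma 3.58.1 under R 4.3.3, with lmFit, eBayes and 2-sided p-values, which were adjusted by Benjamini-Hochberg across all these probes. The threshold was 0.05. The brightest probe represented a gene. A bound ("at least") sets the detected group's mean against the lowest signal well above background on each array of the other group, or that array's own signal where it is higher. Such bounds hold only with the background correction of Feature Extraction. With normexp the log2 differences of Gzmb, Ackr1 and Il6 were 2.28, -0.77 and 0.74, smaller in size than their bounds. Labels do not tie samples to separate animals, so p-values measure the spread between arrays, whose number limits the precision.

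The members and the lists were chosen with earlier results of these data known. All members are named, as are receptors and proteases, and from other lists at most 4 called genes each way by size. A few genes that count in the lists are not reported here by name. The alternatives were normexp (offset 50), quantile normalisation, a 75th percentile over detected probes, the deposited values, other filters, kept outliers, an intensity trend, the methods' t-test, all probes of a gene, the replicate number as a block and each array left out. The fit was tested on simulated data. Sequence windows came from RefSeq.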

Additional observations from a re-analysis of the deposited data

How the results depend on the processing

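Direction was kept by Cxcl9, Cxcl10, Ccl5, Ccl2, Ccl3, Ccl4 and Cxcl11 under every alternative that was run. Among them, Cxcl9 was 1.04 and Cxcl10 3.44 with normexp, and Cxcl11 was -0.33 with a 75th percentile over detected probes and -0.27 as the mean of its probes. That percentile moved the median of all genes to -0.24, and Cxcl16, which was not called, lay between -0.06 and 0.49 over settings that kept all arrays and between -0.18 and 0.45 with 1 array left out. Scaling by the spike-ins was not among the alternatives. The spike-ins detected on every array differed by -0.63 to -0.50, more in size than Cxcl11, Ccl2 and Ccl3 in the main fit. Among the genes called lower, Cxcr6 (-0.60) was within that range, and Irf2 and Birc3 were near it. The directions and calls of genes under such scaling were not tested. The median of the tested members, -0.12, was 0.40 without Cxcl11, a setting chosen after seeing the data. Counts are given below as higher and lower, beside 3 and 1 for the members, 1 and 4 for their receptors, 1 and 3 for other ligands, 1 and 1 for other receptors, 9 and 1 for interferon signalling, 5 and 3 for NF-kB, 11 and 0 for GTPases and antigen presentation and 10 and 0 for antiviral genes.

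With the methods' t-test and Benjamini-Hochberg adjustment all of these counts were 0. At its unadjusted threshold 3 members were higher and 1 lower, with 0 other receptors and 2 interferon signalling genes lower. With no filter on dim probes the counts moved to 0 members lower, receptors 0 higher and 1 lower, 2 other ligands higher, 0 interferon signalling genes lower, and 1 NF-kB gene higher and 1 lower. With detection on all 6 arrays 2 receptors were lower and 0 other ligands higher. With quantile normalisation 1 receptor, 0 other receptors and 2 interferon signalling genes were lower and 3 NF-kB genes higher. With the percentile over detected probes 2 other receptors, 2 interferon signalling genes and 6 NF-kB genes were lower and 3 NF-kB genes higher. With the mean of all probes 0 other receptors and 2 interferon signalling genes were lower, with deposited values 0 other receptors, and with normexp or an intensity trend 2 other ligands were higher. The causes of these changes were not tested, apart from the filters, which change the genes adjusted over.

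Same-numbered arrays deviated together with r of -0.07, 0.19 and 0.11, and differently numbered arrays with r of -0.30 to 0.13. With so few arrays these values do not settle whether the numbers pair the samples. With the replicate number as a block, 2 members were lower, Ccl3 beside Ccl4, and 3 NF-kB genes were higher and 1 lower. It moved no other of these counts by over 1.5 times, and not every array correlated best with its own number.

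When arrays were left out one at a time, the members higher ranged from 2 to 3 and lower from 0 to 1, and the receptors from 0 to 1 and from 0 to 4. Other ligands ranged from 0 to 2 higher and 0 to 3 lower, and other receptors from 0 to 1 both ways. Interferon signalling genes ranged from 4 to 10 higher and 0 to 1 lower, NF-kB genes from 1 to 4 both ways, GTPases and antigen presentation from 5 to 11 higher and antiviral genes from 3 to 10 higher. A member call was lost for Ccl5 without the second control array, and for Ccl4 without any control array or the second Atg5f/f;Vav array. Slide and scan could not be fitted as a block, since there was 1 of each. Cxcl9, Cxcl16 and the dimmer Cxcl10 probe are limited by signal over background.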
